A study of Mus musculus with 6 samples.

Results

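Oligodendrocyte lineage transcription factors were followed in cultured neural stem cells (NSCs) with and without miR-151. The set held 10 genes, chosen by symbol as known regulators of this lineage and mapped to the Ensembl identifiers of the count table, out of 32493 genes counted. They were *Sox10*, *Myrf*, *Olig1*, *Olig2*, *Nkx2-2*, *Nkx6-2*, *Sox8*, *Zfp488*, *Zfp536* and *St18*, and all 10 passed the filter on low counts. RNA-seq had been carried out on NSCs from E14.5 embryos on the C57BL/6J background, taken from around the lateral ventricles and grown for 3 generations in medium with EGF and bFGF. The conditional knockout (cko) was miR-151 fl/fl with Emx1-IRES-Cre, a driver active in the dorsal telencephalon, and the littermate control (ctrl, called wt in the labels) was miR-151 fl/fl without Cre. Both genotypes therefore carried the floxed allele, and the lineage regulators themselves were not altered by design. The table held 3 cko and 3 ctrl columns, but the values of ctrl replicate 2 were, for all 32493 genes, the average of replicates 1 and 3 taken to the next whole number. Values below come from the 5 independent libraries, 2 ctrl and 3 cko. Whether these came from separate embryos or cultures was not stated, so p-values measure only the spread between these libraries, which may be technical.

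Oligodendrocytes form from NSCs by way of dividing precursor cells, which leave the cycle, become newly formed oligodendrocytes and then make myelin. The basic helix-loop-helix factors OLIG1 and OLIG2 act early and specify precursors, and SOX10, a SOXE factor, is switched on in them and is required for their maturation. SOX10 and OLIG2 act upstream of *Myrf*, which encodes the membrane-bound regulator that switches on myelin genes, and the homeobox factors NKX2-2 and NKX6-2 and several zinc finger proteins adjust the timing.

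The lineage factors did not move together. *Myrf* and *Sox10* were 7.48-fold and 3.74-fold lower in cko NSCs, *Nkx6-2* and *St18* were also lower, and *Nkx2-2* and *Zfp488* were lower by smaller amounts. *Olig1* and *Olig2* were 1.55-fold and 1.30-fold higher, and *Zfp536* was 2.18-fold higher. *Sox8* was at the same level to within a narrow interval. At an adjusted p under 0.05 in the edgeR quasi-likelihood test over all 16710 genes tested, 3 of the 10 factors were higher in cko and 6 were lower. The 6 included *St18*, which passed the filter on low counts through the ctrl libraries alone. Among all tested genes 7.86% were called higher and 8.57% lower. The factors were chosen with earlier results of these data known, so their counts cannot be tested against that background. Without cko replicate 2, 0 factors were called higher and 3 lower, and without cko replicate 3, 0 and 4. None of the 9 called factors overlapped between genotypes, with 3 above and 6 below every ctrl library. No overlap of that kind was found in 25.4% of all tested genes with cko higher and in 24.3% with cko lower. At the threshold used in the study, a log2 fold change beyond 0.9 with an unadjusted p under 0.01, 1 factor was higher (*Zfp536*) and 4 were lower (*Sox10*, *Myrf*, *Nkx6-2*, *St18*). That threshold called 2.39% of all tested genes higher and 4.17% lower. The median log2 fold change was -0.56 over the 10 factors and -0.0026 over all tested genes. In bulk RNA, fewer cells of a type and less RNA per cell cannot be told apart.

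**Figure D1:**
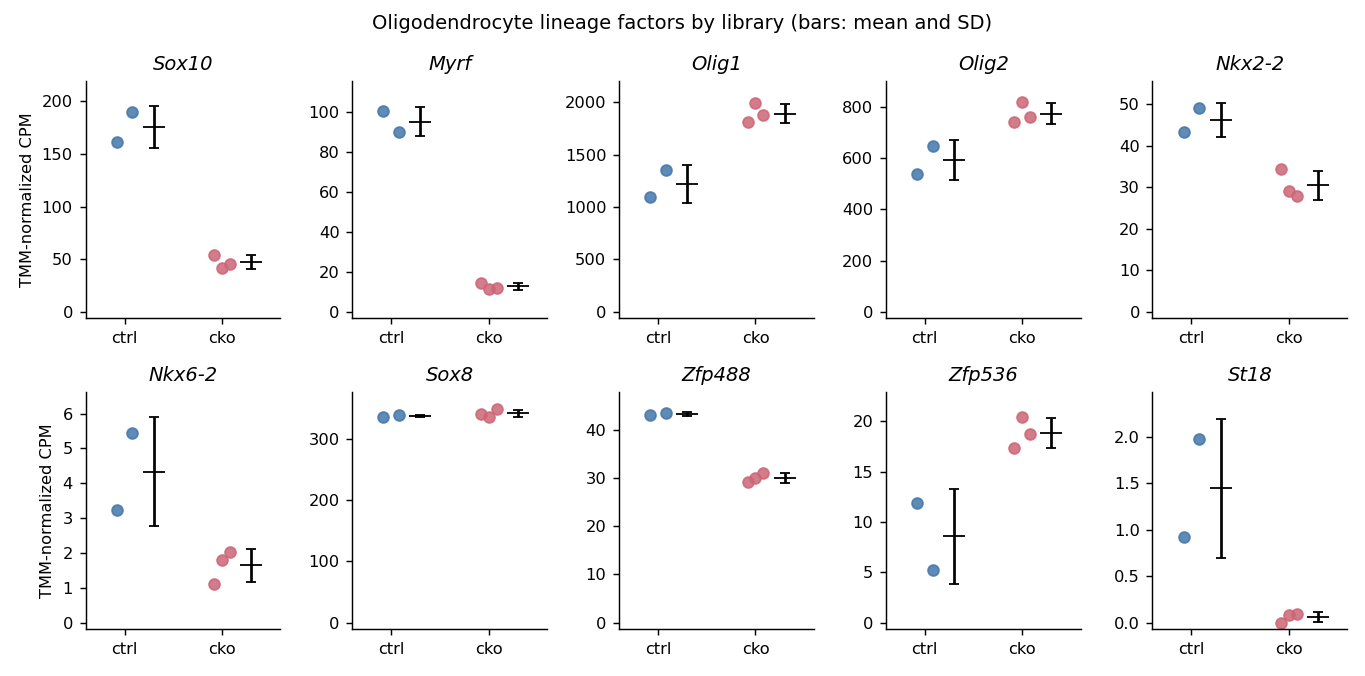
TMM-normalized CPM (counts scaled to library size) of the 10 factors in each library, with 2 ctrl libraries in blue and 3 cko libraries in red and a separate linear axis for each gene. Black bars give the mean and SD of each genotype. *Sox10* and *Myrf* sit far lower in all 3 cko libraries, *Olig1*, *Olig2* and *Zfp536* sit higher, and *Sox8* overlaps.

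*Olig1* (ENSMUSG00000046160, chr16:91269772-91271933 on the plus strand of GRCm38 in GENCODE M21) and *Olig2* (ENSMUSG00000039830, chr16:91225457-91228677, plus strand) are neighbours on the same chromosome. *Olig1* was counted at 1097 and 1351 CPM in ctrl and at 1809, 1994 and 1879 CPM in cko. All 3 cko libraries were higher than both ctrl libraries. The log2 fold change was 0.63 ± 0.11 (SE, edgeR adjusted p = 0.0108), with a 95% interval of 0.37 to 0.89. The call was lost without cko replicate 2 (adjusted p = 0.0812 in edgeR) or without cko replicate 3 (adjusted p = 0.0686 in edgeR). *Olig2*, the factor that defines the lineage from its first step, was counted at 539 and 649 CPM in ctrl and at 741, 819 and 761 CPM in cko. The groups did not overlap, but the gap between the highest ctrl and the lowest cko library was smaller than the gap between the ctrl libraries. Its log2 fold change was 0.38 ± 0.10 (SE, edgeR adjusted p = 0.0444; 95% interval 0.14 to 0.62). This rise was the least stable call of the set: it was kept in 6 of 13 alternative fits, and the adjusted p went up to 0.199 in edgeR without cko replicate 2. Those 6 included every 6-column fit, which counts the ctrl average as a library, and a fit with 1 ctrl library. It was also lost without ctrl replicate 1, where the log2 fold change was 0.24, without cko replicate 1 and without cko replicate 3. In every alternative the direction was upward for both genes. The ratio of *Olig1* to *Olig2*, per kilobase (kb) of exon, was 2.38 and 2.44 in ctrl and 2.86, 2.85 and 2.89 in cko, so the cko libraries lay above the ctrl libraries by a small step.

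*Sox10* (ENSMUSG00000033006, chr15:79154908-79165240, minus strand) encodes the SOXE factor that marks cells committed to the lineage. It was counted at 162 and 190 CPM in ctrl and at 54.4, 41.2 and 45.3 CPM in cko. The highest cko library was far below the lowest ctrl library. The log2 fold change was -1.90 ± 0.13 (SE, edgeR adjusted p = 0.000668; 95% interval -2.20 to -1.60), and it was called in 13 of 13 alternative fits, with values from -2.03 to -1.78. *Sox8* (ENSMUSG00000024176, chr17:25565892-25570686, minus strand), the SOXE relative that shares part of the work of *Sox10* in this lineage, was counted at 337 and 339 CPM in ctrl and at 341, 337 and 349 CPM in cko. The genotypes overlapped. The log2 fold change of *Sox8* was 0.02 ± 0.069 (SE, edgeR adjusted p = 0.876), and its 95% interval of -0.14 to 0.18 does not reach a change of the size seen for *Sox10*. *Sox9*, the remaining SOXE gene and a factor of NSCs and astrocytes as well, had 446 and 364 CPM in ctrl and 518, 472 and 457 CPM in cko, and its log2 fold change of 0.25 ± 0.11 was not called (SE, edgeR adjusted p = 0.157). *Sox9* was called in 3 of its alternative fits, one of them without ctrl replicate 1.

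Levels of different genes were compared as CPM per kb of exon. Of the summed level of the 3 SOXE genes, *Sox10* made up 19.7% and 24.01% in the ctrl libraries and 7.07%, 5.73% and 6.26% in the cko libraries. *Sox8* and *Sox9* together held the rest in both genotypes. The *Sox10* to *Sox8* ratio was 0.491 and 0.572 in ctrl and 0.163, 0.125 and 0.133 in cko. The *Olig2* to *Sox10* ratio was 4.02 and 4.13 in ctrl and 16.4, 23.96 and 20.2 in cko. The ctrl libraries lay close together and the cko libraries were more spread, and every cko library was far above both ctrl libraries.

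**Figure D2:**
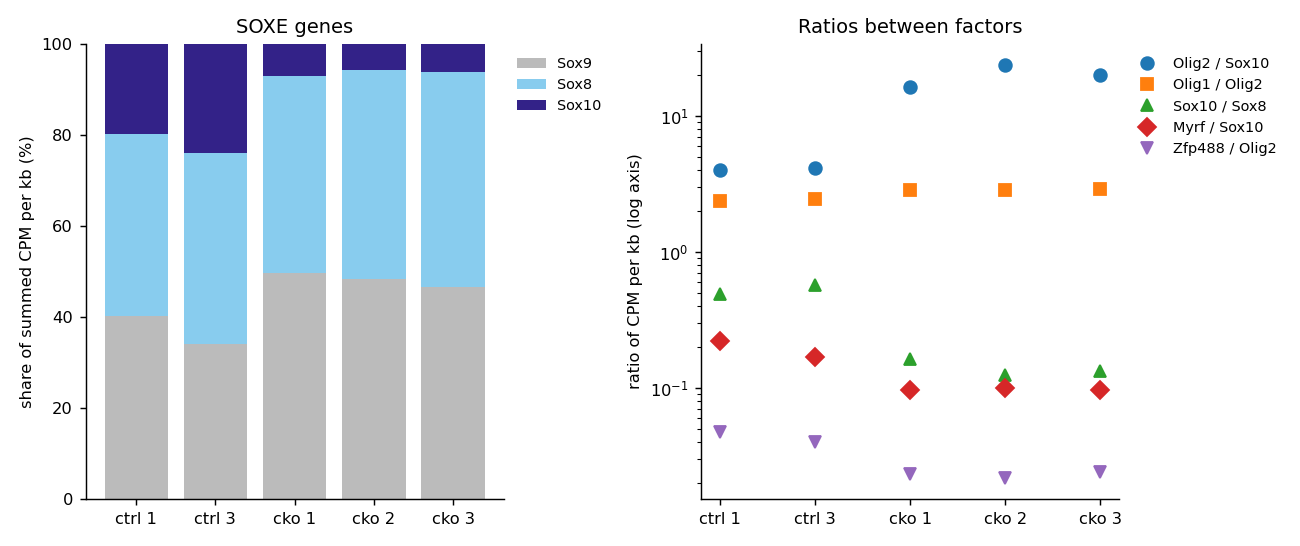
Left, share of *Sox8*, *Sox9* and *Sox10* in their summed CPM per kb of exon in each library, in percent. Right, ratios of CPM per kb between pairs of factors in each library, on a log axis. The *Sox10* share falls from 19.7% and 24.01% in ctrl to between 5.73% and 7.07% in cko, and the *Olig2* to *Sox10* ratio rises from about 4.02 to at least 16.4.

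*Myrf* (ENSMUSG00000036098, chr19:10208272-10240748, minus strand) was counted at 100.5 and 90.2 CPM in ctrl and at 14.7, 11.5 and 12.2 CPM in cko. No library of one genotype came near the other. With a log2 fold change of -2.90 ± 0.12 (SE, edgeR adjusted p = 0.000146; 95% interval -3.18 to -2.63), it had the smallest p of the set, and it was called in 13 of 13 alternative fits. *Myrf* was lower relative to *Sox10* as well: the ratio per kb was 0.222 and 0.170 in ctrl and 0.0960, 0.0996 and 0.0958 in cko. *St18* (ENSMUSG00000033740, chr1:6487231-6860940, plus strand), a zinc finger gene of the MYT family, was near the limit of detection, with 21 and 37 counts in ctrl and 0, 2 and 2 counts in cko. The 58 counts over both ctrl libraries against 4 over the 3 cko libraries gave a ctrl to cko ratio of 21.9, with an exact 95% interval of 8.12 to 83.2 that covers counting error only. The edgeR adjusted p was 0.00899, and *St18* was called in each of the 12 alternatives in which it was tested. It passed the filter on low counts through the ctrl libraries alone, which favours a call in this direction. These calls are therefore no support beyond the counts themselves.

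*Nkx2-2* (ENSMUSG00000027434, chr2:147177546-147194243, minus strand) encodes a homeobox repressor that times the step from precursor to oligodendrocyte. It was counted at 43.3 and 49.1 CPM in ctrl and at 34.3, 29.2 and 27.8 CPM in cko. Every cko library was lower than both ctrl libraries, and the log2 fold change was -0.60 ± 0.12 (SE, edgeR adjusted p = 0.0155). The call was lost without cko replicate 2 (adjusted p = 0.0819 in edgeR) or cko replicate 3 (adjusted p = 0.0771 in edgeR). *Nkx6-2* (ENSMUSG00000041309, chr7:139579376-139582797, minus strand), a homeobox gene expressed in oligodendrocytes, was scarce, at 3.23 and 5.44 CPM in ctrl and 1.12, 1.80 and 2.02 CPM in cko. The ctrl libraries differed by 1.68-fold from each other, and all cko libraries were lower than either. Its log2 fold change was -1.38 ± 0.34 (SE, edgeR adjusted p = 0.0345). The call was lost in edgeR without ctrl replicate 3 (log2 fold change -0.95, adjusted p = 0.1005), and without any of cko replicates 1, 2 and 3 (largest adjusted p = 0.113).

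The zinc finger genes went in opposite directions. *Zfp488* (ENSMUSG00000044519, chr14:33967070-33978764, minus strand), an oligodendrocyte repressor that works with OLIG2, was counted at 43.1 and 43.6 CPM in ctrl and at 29.2, 30.01 and 31.1 CPM in cko. Libraries of one genotype hardly differed, and the log2 fold change was -0.53 ± 0.083 (SE, edgeR adjusted p = 0.00777). It was called in 12 of 13 alternative fits, the exception being the fit without cko replicate 2 (adjusted p = 0.0509 in edgeR). *Zfp536* (ENSMUSG00000043456, chr7:37472135-37773641, minus strand), a zinc finger repressor also known from neurons, was counted at 11.9 and 5.23 CPM in ctrl and at 17.3, 20.4 and 18.8 CPM in cko. The ctrl libraries differed by 2.27-fold, a spread over 2-fold that 6.06% of tested genes had. All cko libraries were higher than both, and the log2 fold change was 1.13 ± 0.30 (SE, edgeR adjusted p = 0.0450). It ran from 0.67 to 1.84 over the alternatives, and the call was lost without cko replicate 1, 2 or 3 (adjusted p = 0.0985, 0.150 and 0.136 in edgeR).

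**Figure D3:**
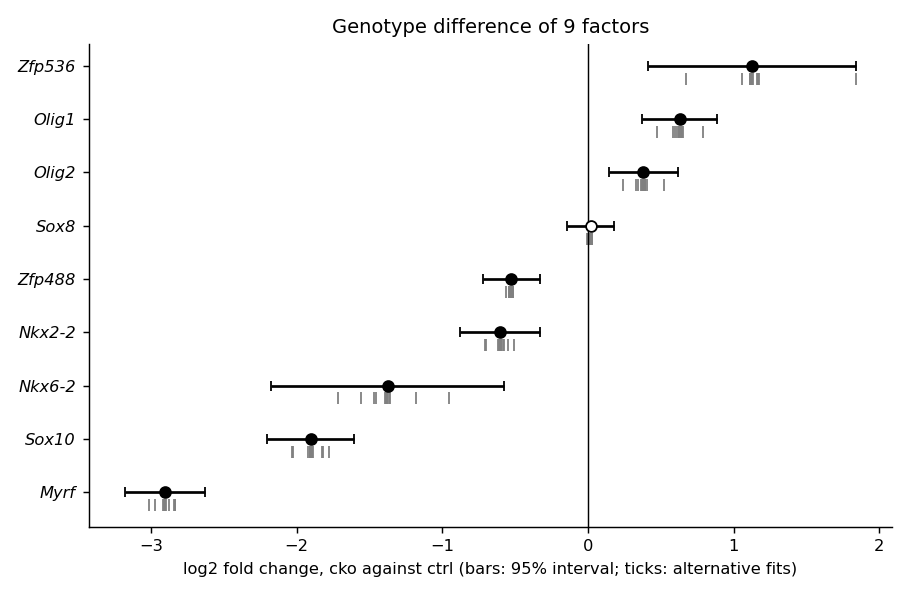
Log2 fold change of 9 factors in cko against ctrl, with 95% intervals. Filled points passed an adjusted p under 0.05, the open point (*Sox8*) did not, and grey ticks below each point are the alternative fits. *St18* is left out because its cko libraries held 0 to 2 counts. No alternative moves a called factor across 0.

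Per kb of exon, the order of the factors in ctrl was *Olig1* (566 CPM per kb), *Olig2* (235), *Sox8* (108), *Sox10* (57.6), *Nkx2-2* (16.1), *Myrf* (11.1), *Zfp488* (10.1), *Nkx6-2* (2.27), *Zfp536* (0.928) and *St18* (0.224). In cko the first 5 places were held by the same genes in the same order, at 876, 306, 110, 15.4 and 10.6 CPM per kb. *Myrf* went from place 6 to place 8, at 1.49 CPM per kb, below *Zfp488* (6.996) and *Zfp536* (2.04), and it was followed by *Nkx6-2* (0.864) and *St18* (0.00916). Neighbours in either order did not overlap across the libraries of a genotype, and the order was the same with the longest transcript in place of the union of exons.

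Of the 10 factors, 6 had a window around their start in RefSeq (GRCm38.p6), and 3 of these are shown: that of *Olig2*, with the one SOX match among them, that of *Nkx2-2*, with the most E-boxes, and that of *Zfp488*, with the one MYRF match. The windows run from 250 bases before the start annotated in RefSeq to 30 bases after it. For *Olig2* and *Nkx2-2* that start lies inside the GENCODE coordinates given above, and so do the matches in their windows. Both strands were searched for the E-box bound by basic helix-loop-helix factors (CANNTG), for a SOX motif (ACAAAG or ACAATG, the latter read as CATTGT on the opposite strand) and for a MYRF motif (CTGGCAC or CTGGTAC). Matches are in capitals, and the printed strand is that of the gene. The windows lie at chr16:91225300-91225579 (plus), chr2:147186373-147186652 (minus) and chr14:33978735-33979014 (minus).
Olig2: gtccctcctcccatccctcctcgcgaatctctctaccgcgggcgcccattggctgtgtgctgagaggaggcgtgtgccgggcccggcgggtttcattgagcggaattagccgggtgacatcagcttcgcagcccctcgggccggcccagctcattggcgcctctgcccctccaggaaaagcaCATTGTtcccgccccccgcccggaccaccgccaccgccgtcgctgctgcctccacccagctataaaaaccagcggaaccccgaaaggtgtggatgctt
Nkx2-2: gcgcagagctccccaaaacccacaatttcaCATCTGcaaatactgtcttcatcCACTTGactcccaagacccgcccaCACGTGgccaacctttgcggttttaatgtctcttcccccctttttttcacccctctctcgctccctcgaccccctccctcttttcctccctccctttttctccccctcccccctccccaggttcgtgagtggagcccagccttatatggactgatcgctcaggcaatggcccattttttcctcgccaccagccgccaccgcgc
Zfp488: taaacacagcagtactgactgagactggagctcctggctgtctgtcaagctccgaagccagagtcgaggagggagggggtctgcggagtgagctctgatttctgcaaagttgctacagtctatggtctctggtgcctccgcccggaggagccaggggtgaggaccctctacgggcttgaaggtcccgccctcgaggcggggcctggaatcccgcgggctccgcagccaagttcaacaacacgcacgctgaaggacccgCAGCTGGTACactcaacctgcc
The *Olig2* window, of a gene that was higher in cko, held a single SOX match at position -68 and no E-box. The window of *Nkx2-2*, which was lower, held 3 E-boxes at -220, -197 and -173. In *Zfp488*, also lower, an E-box at position 9 overlapped a MYRF match at position 12, so that both share letters and are not separate matches. The windows of *Nkx6-2* and *Sox8* held 1 E-box each, and that of *Zfp536* held none of these letters. Of all 32851 windows of this length, 70.1% held an E-box, 15.5% held at least 3, 27.4% held a SOX match and 6.65% held a MYRF match. These matches are a description of the sequence and were not tested as binding sites.

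Relatives of the factors came from lists of the same families. Of 9 SOX relatives tested, 4 were higher in cko and 0 lower, and all 9 had a positive log2 fold change. The smallest p belonged to *Sox4* at 0.62 ± 0.082 log2 units, *Sox5* at 0.42 ± 0.072 and *Sox3* at 0.59 ± 0.11 (edgeR adjusted p = 0.00431, 0.0103 and 0.0112). The calls of *Sox5* and *Sox3* were lost without cko replicate 2 or 3 (edgeR adjusted p = 0.0698 and 0.0726 for *Sox5*, 0.0596 and 0.0653 for *Sox3*). Of 10 basic helix-loop-helix and ID partners, 3 were higher and 1 was lower. *Hes5*, a Notch target that holds cells back from differentiation, rose by 0.93 ± 0.077, and *Hes1*, another Notch target, was at -1.04 ± 0.15 (edgeR adjusted p = 0.00107 and 0.00588). *Tcf4*, a dimer partner of OLIG factors, rose by 0.56 ± 0.089 and *Id2*, which blocks such dimers, by 0.65 ± 0.13 (edgeR adjusted p = 0.00777 and 0.0152). Both calls were lost without cko replicate 2 or 3 (edgeR adjusted p = 0.0565 and 0.0598 for *Tcf4*, 0.0525 and 0.0691 for *Id2*). Of 7 zinc finger and MYT relatives, 1 was called: *Myt1*, the relative of *St18* that is found in precursors, rose by 0.89 ± 0.098 (edgeR adjusted p = 0.00251), from 172 and 155 CPM in ctrl to 283, 291 and 331 CPM in cko. *Myt1l*, the neuronal member, was at 0.20 ± 0.34 (edgeR adjusted p = 0.719). In the homeobox list only *Prox1* could be tested, at 0.39 ± 0.13 (edgeR adjusted p = 0.0779), which DESeq2 called, and *Nkx6-1* had at most 0.213 CPM in any library.

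Among 15 other regulators of the lineage, 6 were higher and 2 were lower. The lower ones were *Klf9*, a hormone-responsive factor, at -1.51 ± 0.095 and *Tcf7l2*, a Wnt effector of newly formed oligodendrocytes, at -1.14 ± 0.13 (edgeR adjusted p = 0.00049 and 0.00259). Those with the smallest p among the higher ones were the chromatin enzymes *Ezh2* (0.62 ± 0.088), *Hdac2* (0.37 ± 0.070) and *Hdac1* (0.38 ± 0.082), with edgeR adjusted p = 0.00555, 0.0138 and 0.0218. The calls of *Hdac2* and *Hdac1* were lost without cko replicate 2 (edgeR adjusted p = 0.0880 and 0.115), without cko replicate 3 (0.0894 and 0.1003) and with the replicate block (0.0591 and 0.0824). By list, in the order given, 44.4%, 30%, 14.3%, 0% and 40% of tested genes were called higher, beside 7.86% of all tested genes. Called lower were 0%, 10%, 0%, 0% and 13.3%, beside 8.57% of all tested genes. Over all these relatives and regulators together, 14 were higher in cko and 3 were lower. There were 4 higher and 3 lower without cko replicate 2, the same numbers without cko replicate 3, and 9 higher and 3 lower with the replicate block.

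Of 12 genes of precursors and newly formed oligodendrocytes, 6 were lower and 1 was higher, with a median log2 fold change of -0.58. Called lower were 50% and higher 8.33%, beside 8.57% and 7.86% of all tested genes, whose median was -0.0026. *Bcas1*, which marks newly formed oligodendrocytes, went from 335 and 371 CPM in ctrl to 33.3, 15.4 and 18.9 CPM in cko, a log2 fold change of -3.98 ± 0.28 (SE, edgeR adjusted p = 0.000879). *Tns3* and *Itpr2*, also of that stage, were at -1.08 ± 0.088 and -1.14 ± 0.093 (edgeR adjusted p = 0.00107 for each). *Pdgfra*, the receptor that defines precursors, was counted at 210.1 and 145 CPM in ctrl and at 268, 227 and 233 CPM in cko, and *Cspg4*, another precursor marker, at 193 and 389 against 278, 369 and 384 CPM. The cko libraries lay above ctrl for *Pdgfra* and overlapped it for *Cspg4*, and neither passed the edgeR test (adjusted p = 0.0942 and 0.594). The unadjusted p of *Pdgfra* was 0.0230 in edgeR. DESeq2 called 3 genes of this list higher, where edgeR called 1. *Vcan*, a matrix proteoglycan, was the one called higher in edgeR, by 0.61 ± 0.15 (edgeR adjusted p = 0.0311). Its call was lost without any one of the cko replicates 1, 2 and 3.

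Of 19 myelin genes, 14 could be tested, of which 9 were lower and 1 was higher, with a median of -1.14. Called lower were 64.3% of those tested and higher 7.14%, beside 8.57% and 7.86% of all tested genes. The 9 included *Mag*, which passed the filter on low counts through the ctrl libraries alone. That favours a call in this direction, so the call of *Mag* is no support beyond its counts. *Mbp*, which encodes myelin basic protein, and *Fa2h*, a myelin lipid enzyme, were at -4.16 ± 0.23 and -4.57 ± 0.25 (edgeR adjusted p = 0.000367 for each). *Tspan2* was higher by 0.43 ± 0.11 (edgeR adjusted p = 0.0415), a call lost without ctrl replicate 1, without any one of the cko replicates and with the replicate block. The late marker *Mog* was low throughout, at 1.22 and 2.19 CPM in ctrl and 1.40, 2.23 and 1.24 CPM in cko, and the genotypes overlapped. For *Mag*, also scarce, they did not, at 3.67 and 2.56 CPM in ctrl and 0, 0.0857 and 0 CPM in cko. *Opalin*, *Mobp* and *Ermn*, which belong to mature oligodendrocytes, were below the filter, with at most 0.655 CPM in any library. *Mobp* had 3 and 5 counts in ctrl and 0 in each cko library. *Ermn* had 1 and 1 in ctrl and 4, 6 and 7 in cko, and *Opalin* overlapped.

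**Figure D4:**
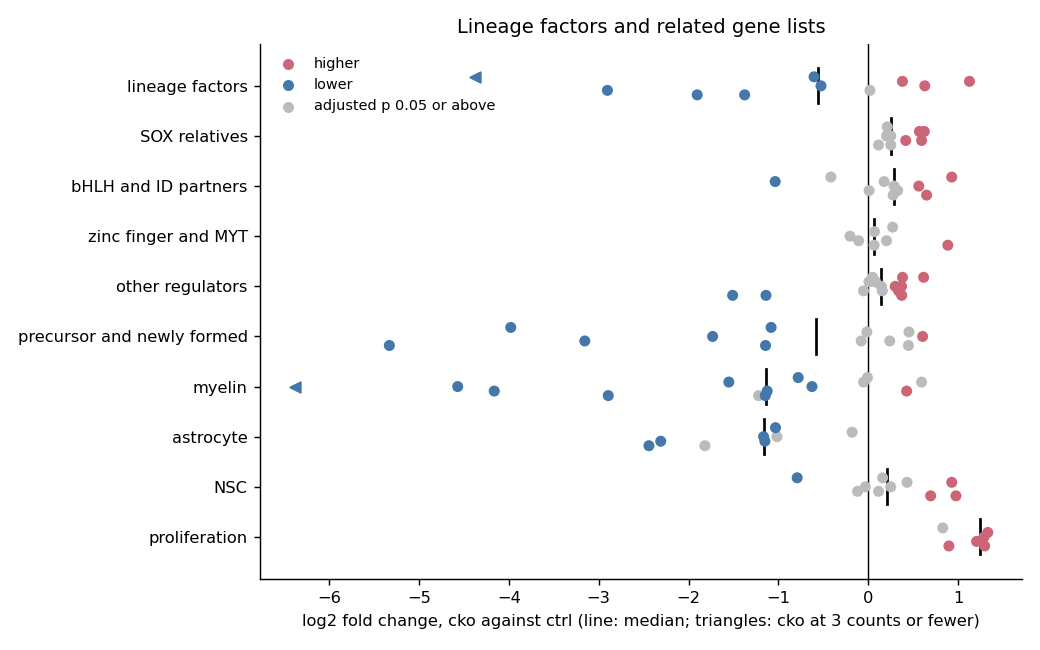
Log2 fold change in cko against ctrl of the lineage factors and of tested genes in 9 related lists, with red for higher, blue for lower and grey for an adjusted p of 0.05 or above. Black lines are medians, and triangles mark genes with at most 3 counts in every cko library, whose fitted values are no estimate of size. The myelin and astrocyte medians lie near -1.14 and -1.16, and the SOX relatives all lie above 0.

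The genes whose profile over the 5 libraries was closest to each of 4 factors were found by the Euclidean distance between log2 CPM centred on the gene's own mean, over all 16710 tested genes, as a description. *Slc30a10*, *Epb41l2* and *Nfasc* came closest to *Sox10*, at distances of 0.221, 0.253 and 0.264. Among the 3 genes nearest to *Myrf* were *Cbln2* at 0.339 and *Tmem45a* at 0.350, the latter with 0 counts in the cko libraries. *Tmem45a* had only 0.524 and 0.534 CPM in ctrl and passed the filter through those libraries alone. Its distance depends on the count added before the log and is no measure of likeness. *Myrf* and *Sox10* were 1.12 apart. In order of distance *Myrf* was number 541 from *Sox10*, and *Sox10* was number 56 from *Myrf*. *Calm2*, *Khdrbs3* and *Lsm4* were closest to *Olig1* (0.0628, 0.0690 and 0.0835), and *Plp2*, *Ybx1* and the pseudogene *AC122453.1* to *Olig2* (0.0414, 0.0467 and 0.0490). The distances were smaller for the OLIG genes, whose profiles span a smaller range.

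Markers of other cell types and states moved with the genotype too. Their counts stand beside 7.86% of all tested genes called higher and 8.57% called lower. Of 6 proliferation genes 5 were higher, with a summed level of 760 and 868 CPM in ctrl and 1565 to 2065 CPM in cko. Of 8 astrocyte genes 5 were lower, with a summed level of 1790 to 2729 CPM in ctrl and 813 to 1405 CPM in cko. Much of the spread of that sum in ctrl came from *Gfap*, at 1008 and 178 CPM in ctrl. It had 298, 86.7 and 122 CPM in cko, overlapped and was not called (edgeR adjusted p = 0.126). Of 10 NSC genes 3 were higher and 1 was lower, and of 7 neuron genes tested 2 were higher and 1 was lower. Of 6 genes of the hedgehog pathway, which induces *Olig2* and *Nkx2-2* in the ventral brain, 2 were lower: *Gli2* at -1.08 ± 0.19 and *Gli3* at -1.04 ± 0.24 (edgeR adjusted p = 0.0120 and 0.0269). Over the 6, 3 log2 fold changes were positive and 3 negative, with a median of 0.0145, and DESeq2 called 4. In *Ptch1* and *Hhip*, at 0.36 ± 0.12 and 0.66 ± 0.21, every cko library was above ctrl, without a call (edgeR adjusted p = 0.0788 and 0.0746). In *Smo*, at -0.28 ± 0.082, every cko library was below ctrl, also without a call (edgeR adjusted p = 0.0561). The call of *Gli2* was lost without cko replicate 2 or 3 (edgeR adjusted p = 0.0658 and 0.0644), and that of *Gli3* without ctrl replicate 1, cko replicate 2 or cko replicate 3 (0.0524, 0.108 and 0.113). Among regional markers, 0 of 4 ventral genes were called in edgeR or DESeq2 (1 of them, *Dlx2*, had an unadjusted p under 0.05 in edgeR), and of 5 dorsal genes *Lhx2* was higher, by 0.65 ± 0.091 (edgeR adjusted p = 0.00524). The part of these shifts in the values of the lineage factors was not tested.

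*Sox10* also marks neural crest and Schwann cells. Of 8 genes for those cells, 2 could be tested, and *Egr2* was lower (-1.53 ± 0.21, edgeR adjusted p = 0.00472), at 10.6 and 7.84 CPM in ctrl and 2.85, 3.39 and 3.35 CPM in cko. The summed level of this list was 41.0 to 69.1 CPM in ctrl and 42.5 to 47.7 CPM in cko, most of it from *Cdh19*. *Tfap2b* was at 0 in every library, and *Foxd3* and *Pmp2* had at most 3 counts in each. Microglial genes summed to at most 1.17 CPM in any library and none of the 8 could be tested. Of 3 vascular genes tested 0 were called in edgeR or DESeq2, with 0 at an unadjusted p under 0.05 in edgeR, and of 2 meningeal genes *Foxc1* was lower, at -1.85 ± 0.21 (edgeR adjusted p = 0.00253).

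Total counts were 17883796 to 23335736 per library, so the floor of 3 counts was 0.129 to 0.168 CPM, and mitochondrial genes took 2.42% to 3.03% of counts. Such floors and the interval of *St18* allow for counting error alone. The *Mir151* gene itself was not among the rows used here, so the deletion could not be checked in these libraries. Whether strand was used in counting was not given in the sources used here. In 4 factors some exon bases are shared with a gene on the opposite strand: 7.26% of *Olig1* with *Gm15966*, 9.67% of *Nkx2-2* with *Nkx2-2os*, 12.9% of *Nkx6-2* with *Inpp5a* and 10.6% of *Sox8* with *2810468N07Rik*. Reads from those stretches cannot be told apart without strand. *Nkx2-2os*, *Inpp5a* and *2810468N07Rik* were at -0.17, -0.13 and -0.10 log2 units and were not called (edgeR adjusted p = 0.800, 0.424 and 0.375), and *Gm15966* was below the filter.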

How the data were processed

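Gene expression was measured by RNA-seq in embryonic NSCs of both genotypes. The authors removed low-quality reads, used HISAT2 for alignment to mm10, and deposited a raw count for each gene. The labels' processing notes name GRCm39 instead. The counting tool, annotation and strand were not given in the sources used here. The other kind of deposited value, in the column of ctrl replicate 2, is the rounded mean of its companions and entered only the 6-column alternatives. The labels and the paper also name different RNA extraction kits.

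Positions and exon lengths came from GENCODE M21 (GRCm38), which matched 31836 of 32493 gene IDs. The fit used edgeR 4.0.16 (R 4.3.3) with filterByExpr by genotype, TMM and the quasi-likelihood test, with Benjamini-Hochberg adjustment over 16710 genes. TMM factors were 0.990 to 1.007. Errors of fold changes are SE with 2 ctrl and 3 cko libraries. Steps were tested on simulated data. As alternatives, DESeq2 1.42.0 was run, and edgeR was run with median-of-ratios size factors, other filters, the replicate block, leaving out each library and all 6 columns. Leaving out a ctrl library left 1 ctrl library, and the 6-column fits count an average as a library. Tallies of alternative fits include both kinds, so they do not count independent support.

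The factors and lists were chosen with earlier results of these data known. Named genes were all factors, up to 3 genes per direction and list by smallest p among those called, fixed close relatives, and the 3 genes nearest to each of 4 factors. *Cspg4*, *Pdgfra*, *Mog*, *Mag*, *Prox1*, *Cdh19*, *Ptch1*, *Hhip*, *Smo*, *Gfap* and the scarce markers were named after their values were seen. Some results that the rule gives are not reported here.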

Additional observations from a re-analysis of the deposited data

How the results depend on the processing

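Over the 10 factors, 110 of 129 alternative values kept their side of the threshold and 19 lost the call. Every called factor kept its direction, and *Sox8*, which was not called, was at -0.0048 without cko replicate 3. *Sox10* and *Myrf* were called in every alternative. *St18*, which passed the filter on low counts through the ctrl libraries alone, was called in each that tested it. Leaving out 1 cko library lowered the number of calls over all genes as well.

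Deviations of same-numbered libraries from their genotype mean correlated at 0.143 and 0.0507. With 2 ctrl libraries the ctrl deviations mirror each other, so this check cannot decide whether the replicate numbers pair the libraries. With the replicate block, 918 genes were higher and 1065 lower, 2 factors were higher and 6 lower, and *Olig2* was not called (log2 fold change 0.34). The block left 9 relatives and regulators higher (14 without it) and 3 precursor and newly formed genes higher (1 without it). In all genes, 1314 were higher and 1432 lower. Leaving out each library gave 317 to 1812 higher and 416 to 2062 lower. It gave 0 to 3 factors higher and 3 to 6 lower, 4 to 19 relatives and regulators higher, 0 to 3 precursor and newly formed genes higher and 0 to 1 myelin genes higher. Without the filter 2237 genes were lower. The 6-column fits gave 2865 genes higher and 2794 lower in edgeR, 2564 and 2520 in DESeq2, and 2675 and 2673 with the replicate block. Precursor and newly formed genes called higher were 3 and myelin genes called higher were 2 with DESeq2, without the filter and in the 6-column fits, including the 6-column fit with the replicate block. At the threshold of the study 1 factor was higher. The causes were not tested, but the 6-column fits count an average as a library. *Olig2* was also lost with median-of-ratios size factors and with at least 10 counts in every library. *St18* could not be tested under the latter.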
